A study of Rattus norvegicus with 24 samples.

Results

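The arrays described here measured the amygdala of male Wistar rats, 10 weeks old, 40 min after an intraperitoneal injection of MK-801 or saline. The 4 amygdala arrays, of 24 arrays in all, were chosen by the tissue in their labels and form 2 dye swaps of 2 arrays. One swap set amygdala RNA of rats given 0.16 mg/kg MK-801 (the high dose) against amygdala RNA of rats given saline, and the other did the same for 0.08 mg/kg (the low dose). The other 20 arrays repeated the design in midbrain, ventral striatum, cerebral cortex, hippocampus and hypothalamus. Per the labels there were 9 rats, 3 of them given saline, and since no label ties a rat to an array or mentions pooling, each dose has 1 value per gene and no error between rats. Saline RNA came from those 3 rats at both doses and in every region, and whether the 2 swaps used the same saline RNA is not stated in the labels. The regions thus share their rats and are not independent replicates of the treatment.

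MK-801, also called dizocilpine, blocks NMDA receptors, a class of glutamate-gated channel, by entering them when open, and is used in rodents to produce states that resemble psychosis. The amygdala is a group of nuclei in the temporal lobe that handles fear, reward and social signals, and in the rat its medial part holds vasopressin neurons. Immediate early genes are switched on within minutes of neuronal or vascular stimulation without new protein synthesis, and many of them encode transcription factors or feedback inhibitors of kinases.

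Values are log2 ratios, MK-801 over saline, so 1 unit is a doubling. A gene was counted at a dose when the mean of its 2 arrays reached 1.5-fold (0.585 on the log2 scale) and both arrays, with the dyes exchanged, had the same sign. Values were had for 23893 genes or transcripts, 23503 of them at the high dose and 23603 at the low dose. On an amygdala array 55.2% to 75.9% of probes stood well above background in Cy3 and Cy5 alike, the median spot reached 1.82 to 2.45 times its background in Cy3 and 3.56 to 5.07 times in Cy5, and at most 2 spots were saturated. Across genes, which are not independent replicates, the 2 arrays of a swap correlated at -0.0992 at the high dose and -0.226 at the low dose after the ratios were turned to MK-801 over saline, while the arrays with MK-801 in Cy5 correlated at 0.515 with each other. Over the 4 arrays the SD across genes was 0.0954 for the MK-801 contrast and 0.127 for the dye contrast, so the dye contrast was the wider of the 2.

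Saline levels show which markers were highest in the amygdala among the 6 regions, as 15.7% of all genes measured were. Of 14 amygdala neuron markers 3 were, a share near that of all genes, and of 15 striatal neuron markers 0 were. All 12 meningeal and fibroblast markers, 10 of 12 microglia markers and 10 of 11 choroid plexus markers were highest there. Avp, the vasopressin gene, had a saline level of 11.07 in the amygdala and at most 9.14 elsewhere, both on the log2 scale of 1 array channel.

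At the high dose 69 genes were higher and 8 were lower than in saline amygdala, which is 0.294% and 0.034% of the genes measured. Genes on which the 2 arrays of the swap opposed each other by the same size numbered 7. At the low dose 18 genes were higher and 18 were lower, 0.0763% each way, against 37 genes on which the arrays opposed each other. The low dose thus gave about as many genes as the disagreement of its arrays. A dose has 1 array per dye orientation, so dye and array cannot be told apart within it. A single low-dose array, the one with MK-801 in Cy5, held 148 genes past 1.5-fold higher and 239 lower, whereas the array with the dyes exchanged held 22 and 26. Computed from the scanner's own log ratios, the splits were 185 higher and 74 lower at the high dose and 59 higher and 97 lower at the low dose, so the share of higher genes was 71.4% and 37.8% there, against 89.6% and 50% with the normalization used here. With median centring in place of loess, 34% of the low-dose genes were higher.

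**Figure D1:**
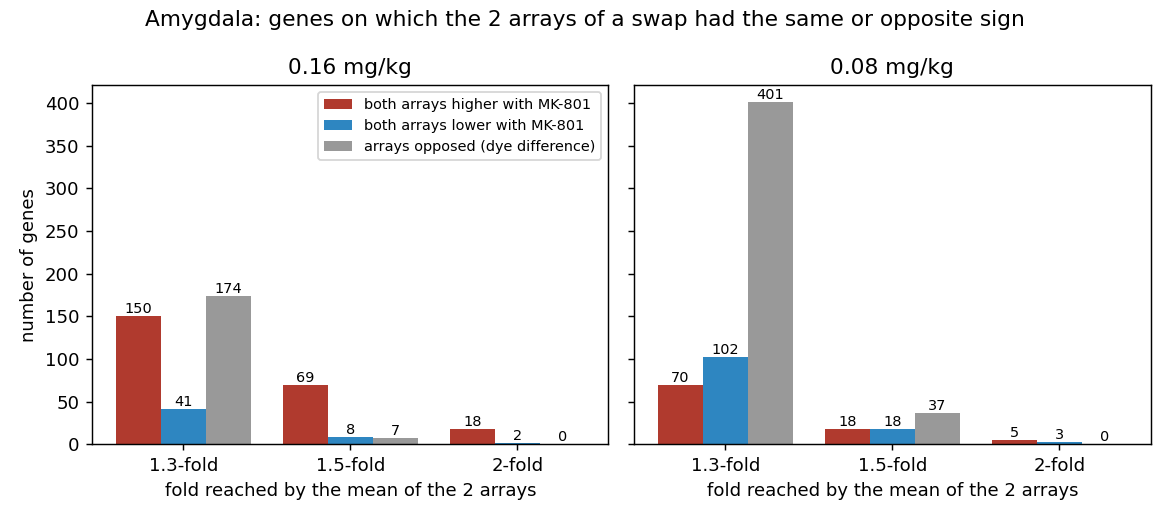
Number of amygdala genes whose 2 arrays of a dye swap had the same sign (red, higher with MK-801; blue, lower) or opposite signs (grey), at 0.16 mg/kg on the left and 0.08 mg/kg on the right, by the fold that the mean (or, for opposed arrays, the difference divided by 2) reached. At 1.5-fold, 69 genes were higher and 7 opposed at the high dose, and 18 were higher and 37 opposed at the low dose.

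Genes past 1.5-fold at both doses in the same direction numbered 10, with 6 higher (0.0258% of the genes with values at both doses) and 4 lower (0.0172%). None was past 1.5-fold in opposite directions. Both doses were set against RNA of the same 3 saline rats, so the doses are not independent and the overlap is given as a count only. Of the 10, 7 have a gene symbol: Ccn1, Apold1, Dusp1 and Cxcl13 were higher, and Avp, Oxt and Galnt16 were lower. At a 2-fold limit 1 gene was higher at both doses, which was Ccn1, and 1 was lower, which was Avp.

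**Figure D2:**
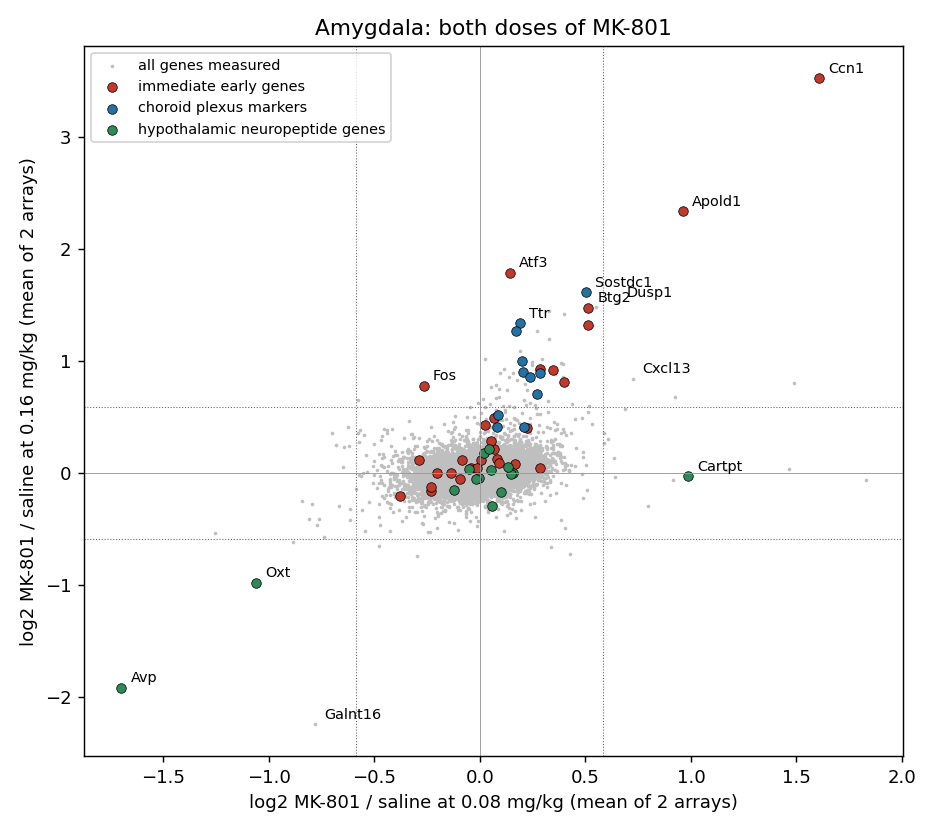
Log2 ratio of MK-801 to saline in the amygdala at 0.16 mg/kg (vertical axis) against 0.08 mg/kg (horizontal axis), each point a gene and each value the mean of 2 arrays; dotted lines mark 1.5-fold. All 11 choroid plexus markers (blue) and 12 of 29 immediate early genes with a value (red) are past 1.3-fold higher at the high dose. Avp and Oxt (green) lie low at both doses, and Cartpt is apart at the low dose alone.

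The largest value was that of Ccn1, which encodes a matricellular protein and responds early to stimulation, whose probe lies at chr2:243811128-243811187 on the rn3 assembly used by the files. Its ratios were 3.24 and 3.81 on the 2 high-dose arrays and 1.56 and 1.65 on the 2 low-dose arrays, that is 11.5-fold and 3.05-fold on average. A second Ccn1 probe gave smaller values in the same order, 1.79 and 1.96 at the high dose and 0.55 and 0.56 at the low dose. Apold1, an early response gene of blood vessel endothelium, had 2.52 and 2.16 at the high dose and 1.19 and 0.73 at the low dose. Dusp1, a phosphatase that inactivates MAP kinases, had 1.61 and 1.44 at the high dose and 0.72 and 0.58 at the low dose. These 3 genes were named because both doses were past 1.5-fold. The 2 arrays of a swap count as 1 value, and no difference between doses was tested.

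The promoters of these genes and of Btg2 are shown because the genes were high together. Each is the 250 bases before the transcription start from the RefSeq promoter table of assembly GRCr8, with 3 motifs in capitals that were searched on both strands: the cyclic AMP response element TGACGTCA, its core TGACG, which the full element contains, and TATAAA.
Ccn1, chr2:237225690-237225939, minus strand: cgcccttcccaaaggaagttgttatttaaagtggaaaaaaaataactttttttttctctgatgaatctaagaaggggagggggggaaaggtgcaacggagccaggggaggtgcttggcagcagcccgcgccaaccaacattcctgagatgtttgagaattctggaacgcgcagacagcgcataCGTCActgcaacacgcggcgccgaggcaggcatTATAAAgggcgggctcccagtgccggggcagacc
Apold1, chr4:169552349-169552598, plus strand: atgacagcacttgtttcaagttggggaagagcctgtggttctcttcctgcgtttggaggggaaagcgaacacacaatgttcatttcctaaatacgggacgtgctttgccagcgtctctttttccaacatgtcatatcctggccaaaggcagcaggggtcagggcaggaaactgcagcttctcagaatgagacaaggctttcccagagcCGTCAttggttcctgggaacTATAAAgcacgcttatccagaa
Dusp1, chr10:17184603-17184852, plus strand: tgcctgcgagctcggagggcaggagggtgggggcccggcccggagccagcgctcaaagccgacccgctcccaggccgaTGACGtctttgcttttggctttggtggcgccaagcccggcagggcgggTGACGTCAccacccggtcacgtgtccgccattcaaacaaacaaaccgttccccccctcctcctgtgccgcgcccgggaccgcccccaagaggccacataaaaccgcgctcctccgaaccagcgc
Btg2, chr13:48087691-48087940, minus strand: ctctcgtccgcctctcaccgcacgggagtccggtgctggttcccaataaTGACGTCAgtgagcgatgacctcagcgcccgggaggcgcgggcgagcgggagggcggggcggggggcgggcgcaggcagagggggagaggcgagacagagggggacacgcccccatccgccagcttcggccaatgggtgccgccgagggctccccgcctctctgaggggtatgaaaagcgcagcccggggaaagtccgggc
The full element is in the windows of Dusp1 and Btg2, and the core and TATAAA are in those of Ccn1 and Apold1. Of 33469 rat promoters of this length, 1.59% hold the full element, 18.2% the core and 12.9% TATAAA. Of the 18 immediate early or glucocorticoid responsive genes past 1.3-fold higher at the high dose, 13 matched the table by symbol, and of these 3 hold the full element, 9 the core and 8 TATAAA. The CArG box, the serum response element's core, is in 1.5% of all promoters and in none of these 13 windows. These matches are letters in a window and not shown to be bound.

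A lower limit of 1.3-fold (0.379 on the log2 scale) was used to count members of gene lists. By that limit 0.638% of all genes were higher and 0.174% were lower at the high dose. At the low dose 0.297% were higher and 0.432% lower. The arrays of a swap opposed each other by the same size on 174 genes at the high dose, against 191 past the limit. For the low dose these numbers were 401 opposed and 172 past the limit. Opposed genes thus outnumbered the genes past 1.3-fold at the low dose, so list counts at that dose are not clear of array disagreement. Of 31 immediate early genes, 29 had a value at the high dose, where 12 were higher and none lower, and 31 at the low dose, where 5 were higher and 1 lower. Their median ratio was 0.13 at the high dose and 0.07 at the low dose, against a median of all genes within 0.01 of 0, so the list moved through a minority of its members.

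The list's transcription factors had unlike values, and no difference between doses was tested for them. Atf3, a stress-induced factor, had 1.95 and 1.62 on the high-dose arrays but 0.37 and -0.08 on the low-dose arrays. Fos, the classical marker of activated neurons, had 0.72 and 0.84 at the high dose, against -0.50 and -0.03 at the low dose. Klf4, a zinc finger factor, had 1.51 and 1.13 at the high dose and 0.88 and 0.15 at the low dose, where its arrays lay far apart. Klf2, an endothelial factor, had 1.02 and 0.82 at the high dose and 0.42 and 0.27 at the low dose, and Ier2 had 1.00 and 0.85 against 0.36 and 0.21. Jun and Junb reached means of 0.49 and 0.43 at the high dose and 0.07 and 0.02 at the low dose. Several genes that mark synaptic activity showed no such value: Arc, which acts in receptor endocytosis, averaged 0.12 at the high dose and -0.09 at the low dose, Egr1 0.00 and -0.20, Fosb 0.04 and -0.04, and Bdnf, a neurotrophin, -0.12 and -0.23. For Nr4a3 the probes beside the one used differed. A probe at chr5:64732396-64732455 had 0.48 and 0.79 on the high-dose arrays, and another at chr5:64758249-64758308 averaged -0.07 there. Egr2 was the 1 member past 1.3-fold lower, with -0.36 and -0.40 on the low-dose arrays and -0.13 and -0.27 on the high-dose arrays.

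Other members of the lists include Btg2 and Sik1. Btg2, an inhibitor of proliferation, had 1.53 and 1.42 at the high dose and 0.66 and 0.37 at the low dose. Sik1, a salt-inducible kinase, had 0.56 and 1.07 at the high dose and 0.32 and 0.47 at the low dose. Of 10 MAP kinase phosphatases and feedback inhibitors measured, Dusp1 alone was past 1.3-fold at either dose, and the median of that list was 0.025 at the high dose.

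Of 18 glucocorticoid and stress responsive genes, 6 of 17 with a value at the high dose were past 1.3-fold higher and 4 of 18 at the low dose, and none was lower. Of all genes 0.638% were higher by that limit at the high dose and 0.297% at the low dose. Depp1, a FOXO target, had 1.62 and 1.21 at the high dose and 0.65 and 0.15 at the low dose. Cebpd, a stress-induced factor, had 0.71 and 0.78 against 0.12 and 0.33, and Gadd45g, a growth arrest gene, had 0.67 and 0.54 against 0.31 and 0.22. Tsc22d3, the glucocorticoid-induced leucine zipper, was 0.32 and 0.47 at the high dose and 0.34 and 0.45 at the low dose, so its doses overlapped. Sgk1, a glucocorticoid-induced kinase, had a value on 1 high-dose array only (0.48) and 0.50 and 0.34 on the low-dose arrays.

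Of 25 immediate early genes tested in the other regions over both doses, 6 passed as higher and 2 as lower (limma against 0), where 1.16% of all genes passed higher and 1.09% lower. Of 27 tested at the high dose none passed the limma test of amygdala minus other regions and none had an unadjusted p under 0.05. For Ccn1 the mean over both doses in the other 5 regions was 2.01 ± 1.51 (SD, n = 5 regions), from 0.31 to 3.91. The amygdala minus other regions difference in the limma fit over both doses was 0.55 (SE 1.04, adjusted p = 0.896). For Apold1 the difference was 0.23 (SE 0.61, adjusted p = 0.932, limma). At the high dose Fos was 0.27 above the other regions (SE 0.20, adjusted p = 0.99, limma). At that dose Ccn1 had 3.94 in ventral striatum and 4.16 in cerebral cortex, both above the amygdala's 3.52, and 2.11, 1.69 and 0.65 in hippocampus, hypothalamus and midbrain.

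A second group of high-dose genes were markers of the choroid plexus, the epithelium inside the brain ventricles that secretes cerebrospinal fluid. All 11 measured markers of 12 listed were past 1.3-fold higher at the high dose and 8 were past 1.5-fold, where 0.638% and 0.294% of all genes were. The filter used amygdala arrays. When probes also had to be well above background on 10 of the 20 other arrays, 7 markers were left, and all 7 were past 1.3-fold higher. At the low dose 1 of 11, Sostdc1, was past 1.3-fold. The median ratio of the list was 0.89 at the high dose and 0.20 at the low dose. In these bulk samples more cells of a type and more RNA per cell cannot be told apart.

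Ttr, transthyretin, the thyroid hormone carrier that the plexus secretes, had 1.54 and 1.14 on the high-dose arrays and 0.22 and 0.16 on the low-dose arrays. Sostdc1, an antagonist of BMP and Wnt signals, had 1.65 and 1.58 at the high dose and 0.58 and 0.43 at the low dose. Otx2, a homeobox factor needed to form the plexus, had 1.17 and 1.36 against 0.04 and 0.31, and a second Otx2 probe had 0.51 and 0.65 against 0.28 and 0.11. These 3 genes were also named for a large difference between doses, so that difference follows from the choice. Kcne2, a potassium channel subunit, had 1.02 and 0.97 at the high dose and 0.17 and 0.24 at the low dose. Aqp1, a water channel of the plexus epithelium, had 1.01 and 0.78 against 0.41 and 0.16. Folr1, a folate receptor, averaged 0.90 and 0.20, Clic6, a chloride channel protein, 0.86 and 0.24, and Kl, the klotho gene, 0.71 and 0.27 at the high and low dose. The lowest members at the high dose were Slc4a5, a bicarbonate transporter, with 0.52, Igf2, a growth factor, with 0.41, and Prlr, the prolactin receptor, with 0.41.

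**Figure D3:**
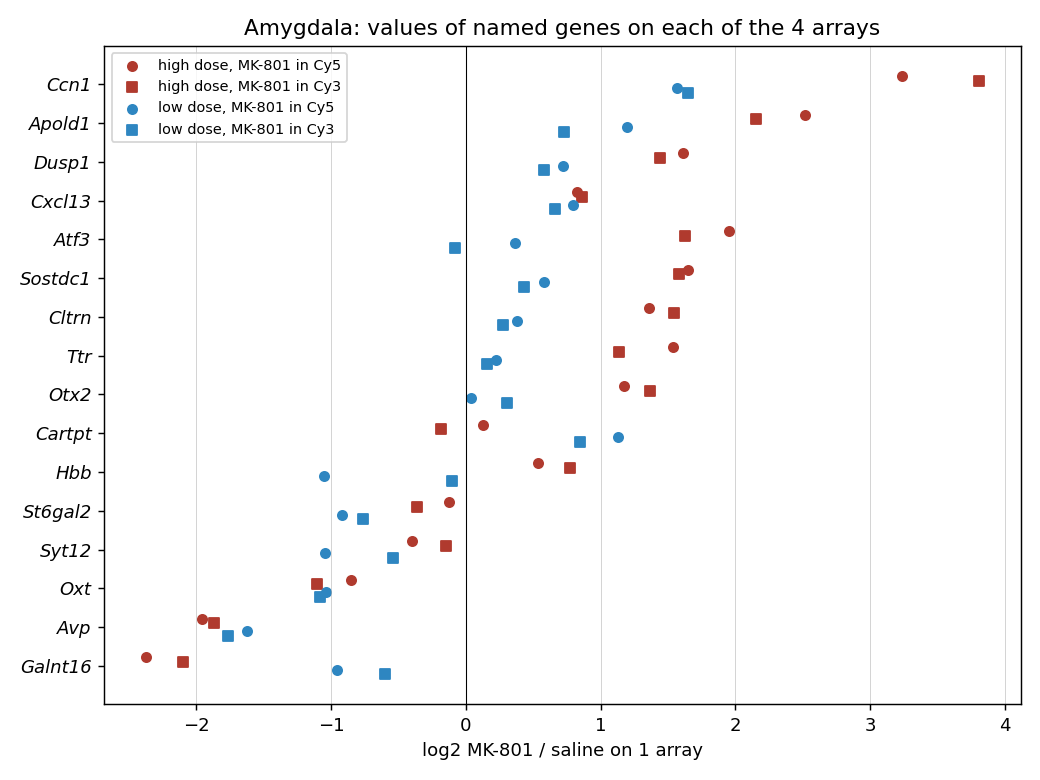
Log2 ratio of MK-801 to saline on each of the 4 amygdala arrays for 16 genes (red, 0.16 mg/kg; blue, 0.08 mg/kg; circles, MK-801 in Cy5; squares, MK-801 in Cy3). The high-dose points of Ccn1, Apold1, Dusp1, Atf3, Sostdc1, Cltrn, Ttr and Otx2 lie to the right of their low-dose points, while the points of Avp, Oxt and Cxcl13 lie close together across doses.

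Channel levels of the markers are computed from the same ratios and intensities, so they are not a second measurement of the difference. The mean log2 level of the 11 plexus markers was 10.62 and 10.63 in MK-801 RNA of the high-dose arrays, 9.87 and 9.92 in MK-801 RNA of the low-dose arrays, and 9.65 to 9.74 in saline RNA of the 4 arrays. When a probe had to be well above background in both colours on all 4 arrays, 9 of the 11 remained. For Ttr the level was 16.5 with the high dose, 15.5 with the low dose and 15.2 in saline amygdala, against 13.6 in saline hypothalamus and 12.9 in saline hippocampus. The meningeal and fibroblast list had a median ratio of 0.04 at the high dose and -0.03 at the low dose, with 1 of 12 members past 1.3-fold higher at the high dose and none at the low dose. How much plexus tissue each dissection held was not tested.

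In the other 5 regions the plexus list as a whole was not high. Of 9 markers tested there over both doses, none passed (limma against 0, 5 regions), 2 had an unadjusted p under 0.05, and the median of the list was -0.09. Ttr ranged from -2.41 in hippocampus to 0.60 in ventral striatum over both doses, and at the high dose it was -2.62 in hippocampus. Sostdc1 was -1.35 in hippocampus and -1.19 in hypothalamus at that dose. Ttr thus varied in either direction between regions. The filter on dim probes used amygdala arrays, and a probe that is dim elsewhere gives ratios near 0 with little spread there, so detection (a signal well above background) on the 20 arrays of the other regions is given beside these tests. The amygdala minus other regions difference at the high dose passed for Folr1, detected in both colours on 20 of those arrays, by 1.05 (adjusted p = 0.0169, limma) and for Aqp1, detected on 19, by 0.99 (adjusted p = 0.028, limma). Kcne2 passed by 0.99 (SE 0.09, adjusted p = 0.00279, limma) but was detected on 11, with none in hippocampus. Kl, Slc4a5 and Prlr were detected on 1, 4 and 4 of the 20, so that the fit's calls for them hold no measured comparison. When 10 of the 20 arrays were required, a filter chosen after seeing the data, Folr1, Aqp1 and Kcne2 had adjusted p values of 0.0235, 0.0405 and 0.00348 (limma). Ttr and Sostdc1 did not pass, with differences of 2.12 (SE 1.00) and 2.10 (SE 0.51) and adjusted p values of 0.99 and 0.539. From the scanner's log ratios none of the markers passed.

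**Figure D4:**
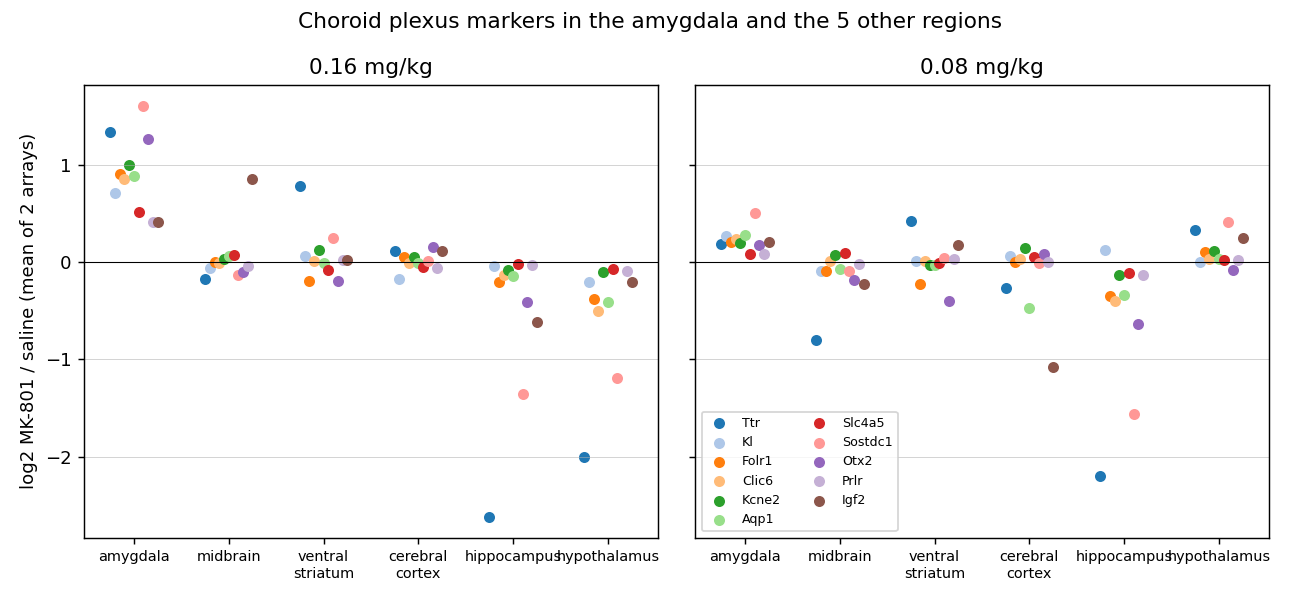
Log2 ratio of MK-801 to saline of 11 choroid plexus markers in the amygdala and the 5 other regions at 0.16 mg/kg (left) and 0.08 mg/kg (right), each point the mean of 2 arrays. All 11 lie above 0.4 in the amygdala at the high dose, and Ttr and Sostdc1 lie far below 0 in the hippocampus at both doses.

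Genes outside the list were also high at the high dose. Cltrn, collectrin, had 1.36 and 1.54 at the high dose and 0.38 and 0.28 at the low dose. Steap1, a metalloreductase family member, had 1.02 and 0.94 against 0.58 and 0.19. Krt18, a keratin of simple epithelia, had 0.80 and 0.69 against 0.10 and 0.08, and its second probe had 0.71 and 0.55 against 0.15 and 0.09. Adipoq, adiponectin, had 0.62 and 0.97 against 0.44 and 0.34. Scgb1c1, a secretoglobin, had 1.17 and 0.81 at the high dose, and 0.51 and -0.01 at the low dose. Over both doses Steap1, Krt18 and Scgb1c1 were 0.79, 0.59 and 0.69 above the other regions, with adjusted p values of 0.00464, 0.00659 and 0.0127 (limma). Krt18 and Scgb1c1 were detected in both colours on all 20 arrays of those regions. Steap1 was detected on 10, with none in midbrain or ventral striatum, so its ratios in those 2 regions measure little but background. Cltrn was detected on 2 of them and Adipoq on 0, so their ratios there measure little but background.

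Of the 69 genes past 1.5-fold higher at the high dose, 53 have a symbol, 8 are on the plexus list, 9 on the immediate early list and 4 on the glucocorticoid list. In saline RNA 34 of the 69 (49.3%) were highest in the amygdala among the 6 regions, against 15.7% of all genes measured; the saline channel is also the denominator of the ratios. Of 65 tested in the other regions, 16 passed there in the same direction and 1 in the opposite direction, where 1.16% of all genes passed higher and 1.09% lower (limma against 0). The regions share their rats, so this overlap is not independent support. The median of the 69 was 0.86 at the high dose, by which they were chosen, and 0.25 at the low dose.

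Avp and Oxt, which encode the vasopressin and oxytocin precursors, lie next to each other in the rat genome and were low in MK-801 amygdala at both doses. Their probes are shown because the genes are similar in sequence and the probes differ in where they lie. Capitals mark the longest run that an Avp and an Oxt probe share, 10 bases, coordinates are on rn3, and the strand is not given in the files.
Avp, probe used, chr3:118110655-118110714: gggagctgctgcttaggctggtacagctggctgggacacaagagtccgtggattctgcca
Avp, other probe, chr3:118110779-118111063: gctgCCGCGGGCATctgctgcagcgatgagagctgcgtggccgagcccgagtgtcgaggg
Oxt, probe used, chr3:118100336-118100479: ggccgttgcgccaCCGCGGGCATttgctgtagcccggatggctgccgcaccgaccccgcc
The Avp probe used shares a run of at most 6 bases with the Oxt probe.

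Avp had -1.96 and -1.87 on the high-dose arrays and -1.63 and -1.77 on the low-dose arrays, so MK-801 amygdala held 0.266 and 0.308 of the saline signal. The other Avp probe gave -1.40 and -1.39 at the high dose and -1.38 on both low-dose arrays. On no array did the value come near 0. Oxt had -0.85 and -1.10 at the high dose and -1.04 and -1.08 at the low dose, and its doses overlapped. The Oxt signal was well above background in MK-801 RNA on 3 of the 4 arrays and in saline RNA on all 4. In the limma fit against the other regions Avp differed by -1.90 at the high dose (SE 0.12, adjusted p = 0.000212), by -1.58 at the low dose (SE 0.07, adjusted p = 2.47e-06) and by -1.74 over both doses (SE 0.07, adjusted p = 5.27e-06).

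In the other 5 regions Avp averaged -0.07 ± 0.08 over both doses (SD, n = 5 regions), from -0.19 to 0.02, and hypothalamus, where vasopressin neurons are most numerous, had -0.22 at the high dose and -0.17 at the low dose. Oxt averaged 0.02 ± 0.10 there and differed from the amygdala by -1.04 over both doses (SE 0.08, adjusted p = 0.00129, limma). For Oxt the difference at the high dose alone was -1.09 (SE 0.18) and did not pass (adjusted p = 0.0617, limma). At the low dose alone it was -0.99 (adjusted p = 0.00433, limma), and with scan day as a block it was -1.06 (adjusted p = 0.0587). The level of Avp was 9.25 in high-dose and 9.28 in low-dose MK-801 amygdala, against 11.16 and 10.98 in the saline RNA of the same arrays. Saline RNA of midbrain, hypothalamus, hippocampus and cerebral cortex held Avp at 8.87, 9.14, 8.39 and 8.12, and ventral striatum held less, so MK-801 amygdala was near the hypothalamus and saline amygdala stood apart. Oxt stood at 6.99 and 6.90 in MK-801 amygdala and at 7.96 in saline amygdala, while saline hypothalamus held 9.51. Whether the saline amygdala RNA held more of a vasopressin-rich neighbouring tissue was not tested.

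**Figure D5:**
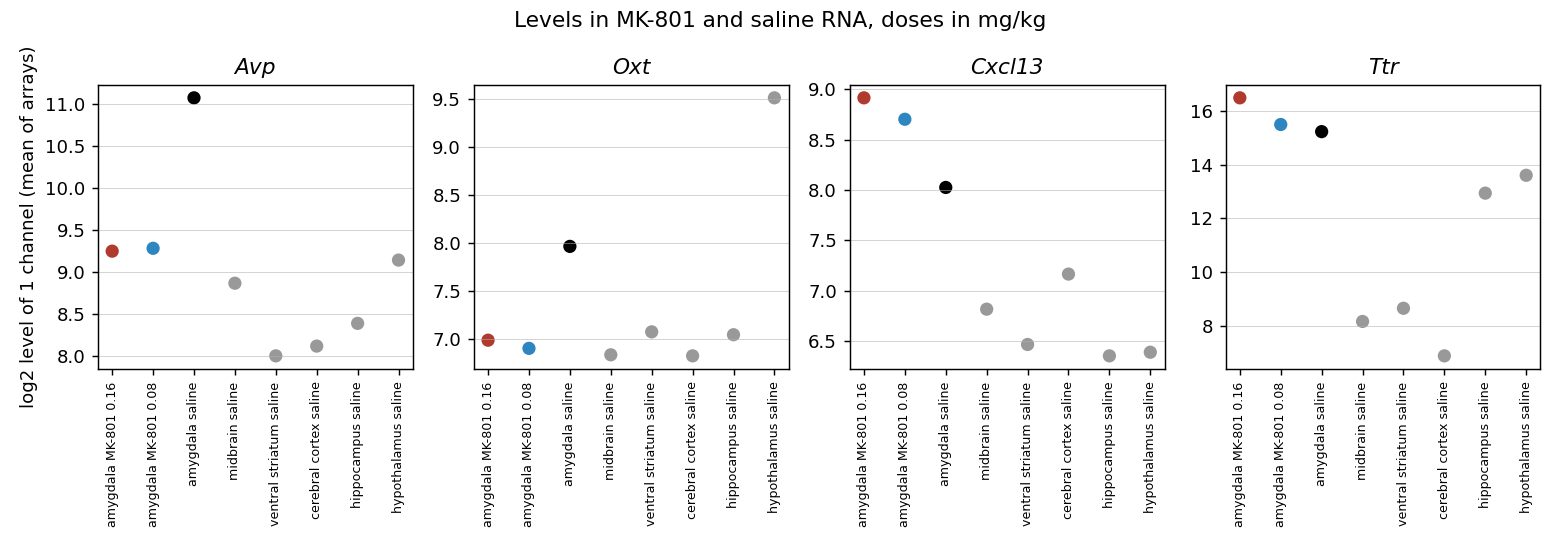
Log2 level of Avp, Oxt, Cxcl13 and Ttr in 1 array channel, in amygdala RNA after 0.16 mg/kg (red) and 0.08 mg/kg MK-801 (blue), in amygdala saline RNA (black) and in saline RNA of the 5 other regions (grey). MK-801 amygdala lies near 9.3 for Avp, where saline amygdala is at 11.1, and Ttr in saline amygdala lies above every other saline region.

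No other hypothalamic or amygdala neuropeptide followed Avp and Oxt at both doses. Of 15 hypothalamic neuropeptide genes, these 2 were past 1.3-fold lower at each dose, and 1, Cartpt, was higher at the low dose alone. Cartpt, which encodes the CART peptide, had 1.13 and 0.85 on the low-dose arrays and 0.13 and -0.19 on the high-dose arrays. In the other 5 regions Cartpt averaged 0.13 ± 0.34 over both doses (SD, n = 5 regions), and the low-dose difference from them did not pass (adjusted p = 0.227, limma). Pdyn, prodynorphin, had 0.53 and 0.25 at the high dose and 0.57 and 0.15 at the low dose. Sst, somatostatin, averaged -0.05 at the high dose and -0.31 at the low dose. Among striatal markers Adora2a, an adenosine receptor, had 0.46 and 0.53 at the high dose and 0.49 and 0.48 at the low dose. In the other 5 regions Adora2a averaged -0.06 over both doses. A second Adora2a probe gave 0.19 and 0.28 at the high dose and 0.29 on both low-dose arrays, all under 1.3-fold. Bcl11b was the striatal marker past 1.3-fold lower, with a mean of -0.43 at the low dose, where its second probe averaged 0.02. The median of the 15 striatal markers was 0.05 at the high dose and 0.11 at the low dose.

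Cxcl13, a chemokine that attracts B cells, differed from saline by nearly the same amount at both doses, with 0.82 and 0.86 at the high dose and 0.79 and 0.66 at the low dose. Its probe was detected in both colours on 7 of the 20 arrays of the other 5 regions, where the ratios averaged -0.03 ± 0.03 over both doses (SD, n = 5 regions), so that this small spread is largely that of background and the fit's call is not used. Its level was 8.92 and 8.70 in high- and low-dose MK-801 amygdala, against 8.03 in saline amygdala and at most 7.16 in the saline RNA of other regions.

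Across all genes, the fit of amygdala minus other regions over both doses passed 23 genes higher and 3 lower of 21139 (0.109% and 0.0142%), against 2085 at an unadjusted p under 0.05. At the high dose 31 were higher and 1 was lower (0.141% and 0.00454%), and at the low dose 2 were higher and 5 lower (0.009% and 0.0225%). These tests set 1 amygdala value against the spread of 5 regions, and with 1 slide per region, slide and region cannot be told apart. Of the 26 genes over both doses, 17 had 10 or more of the 20 other-region arrays with detection in each colour, as had 22 of the 32 at the high dose and 6 of the 7 at the low dose. Of all genes tested in these fits, 20068 of 21139, 20952 of 22028 and 21158 of 22234 had. Genes that passed over both doses and at the high dose were thus less often detected elsewhere than all genes tested. Of the 31 higher at the high dose, 23 (74.2%) were highest in the amygdala in saline RNA, against 15.7% of all genes measured. The filter used amygdala arrays, and genes dim elsewhere have little spread there. Such genes pass the fit more readily and are highest in the amygdala by the same filter, so this share is not read as a result. A fit to the 24 single arrays with the array number as a block, which takes out dye and dose, passed 96 genes over both doses, and 30 without the block. Single arrays of a region share a slide and the saline rats and are not independent, so those p values are too small. From the scanner's log ratios 2 genes passed over both doses, namely Avp and Oxt.

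Rtp4, an interferon-induced chaperone of receptors, passed although it was near 0 in the amygdala. In the amygdala it had 0.06 and -0.22 at the high dose and 0.45 and -0.04 at the low dose, and the arrays of each swap had opposite signs. In the other 5 regions it averaged -0.40 ± 0.04 over both doses (SD, n = 5 regions), and the difference was 0.46 (SE 0.05, adjusted p = 0.0127, limma). Of 21 interferon-induced genes measured in the amygdala, 1 was past 1.3-fold lower at the high dose and none at the low dose. That gene was Irf7, a transcription factor of the interferon response, with -0.44 and -0.54 at the high dose and -0.12 and -0.29 at the low dose. Of 19 members tested, 12 passed as lower in the other regions, where 1.09% of all genes did, and none passed the test of amygdala minus other regions over both doses (limma), with 5 at an unadjusted p under 0.05. Rtp4 is not on that list.

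Other genes were low in the amygdala and, in part, elsewhere. Galnt16, an enzyme that starts O-linked glycosylation, had -2.38 and -2.10 on the high-dose arrays and -0.96 and -0.60 on the low-dose arrays. The other 5 regions averaged -1.29 ± 0.10 over both doses (SD, n = 5 regions), and the difference from them did not pass (-0.31 at the high dose, SE 0.14, adjusted p = 0.99, limma). Of 25 histocompatibility and antigen processing genes, 5 were past 1.3-fold lower at the high dose and 6 at the low dose, and none was higher. Of all genes 0.174% and 0.432% were lower by that limit at the high and low dose. Of 23 tested in the other regions over both doses, 7 passed as lower and 1 as higher, where 1.09% of all genes passed lower and 1.16% higher (limma against 0). RT1-CE3, a class I gene, had -0.83 and -0.79 at the low dose and -0.57 and -0.25 at the high dose. RT1-CE16 had -0.92 and -0.62 at the low dose and -0.56 and -0.36 at the high dose. Class I genes of this family are near copies of one another, so a probe may read several, and when the median over the probes of a gene was taken the low-dose count was 3.

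Other genes past 1.5-fold at the low dose alone were Ptprj, a receptor phosphatase, with -0.87 and -0.65, St6gal2, a sialyltransferase, with -0.92 and -0.76, and Syt12, a synaptotagmin, with -1.05 and -0.54 on the low-dose arrays. Their high-dose arrays gave -0.38 and -0.43, -0.12 and -0.36, and -0.40 and -0.15, all of the same sign. A second Ptprj probe gave -0.52 and -0.27 at the low dose. Pyroxd2, an oxidoreductase, was higher at the low dose, with 0.71 and 0.58, and had 0.08 and -0.15 at the high dose. Of the 18 genes higher at the low dose, 13 of 18 tested passed in the same direction in the other regions (limma against 0). Of the 18 lower, 12 of 16 tested did, where 1.16% of all genes passed higher and 1.09% lower. Those regions came from the same 9 rats, so a difference between rats would pass in them too and the overlap is not independent support.

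Hbb, a beta globin gene of red blood cells, had opposite signs at the 2 doses, with 0.53 and 0.77 at the high dose and -1.05 and -0.10 at the low dose. The red blood cell and platelet list had a median of 0.32 at the high dose and -0.12 at the low dose in the amygdala, over 5 members with a value at the high dose and 6 at the low dose. The other regions had medians of 0.13 to 0.39 at the high dose and -0.41 to -0.07 at the low dose. How much blood each sample held was not tested. P3h3, a collagen prolyl hydroxylase, had -0.58 and -0.86 at the high dose and 0.55 and 0.31 at the low dose, while its second probe averaged -0.13 and -0.01.

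Genes of the drug's target and of fast transmission stayed under 1.3-fold. Of 7 NMDA receptor subunits 6 had values at both doses, and none of these was past that limit. Grin2d had a value on 1 low-dose array only, which was -0.73. None of 16 other glutamate receptors was past the limit at either dose, nor was any of 15 GABA genes at the high dose and 17 at the low dose. The 6 NMDA subunits ran from -0.06 to 0.05 at the high dose and from -0.16 to 0.04 at the low dose. None of 17 circadian clock genes and 12 microglia markers was past it. The same held for the members with values among 12 astrocyte and 16 oligodendrocyte markers, 28 oxidative phosphorylation genes and 33 ribosomal protein genes. Of 15 endothelial and pericyte markers 1 was past the limit: Abcg2, a drug transporter of brain capillaries, had 0.55 and 0.54 at the high dose and 0.51 on both low-dose arrays, and 0.64 over both doses in the other 5 regions.

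The genes with a symbol that lie nearest the 1.5-fold limit show how narrow it is. At the high dose Dhrs7c was just inside with 0.587. At the low dose Pyroxd2 was just inside with 0.64 and Hbb just outside with -0.58. Of 64 genes past the limit at either dose that have a symbol, 8 had a second probe past the filter, and in none was its sign opposite.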

How the data were processed

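Total RNA of each region was amplified, labelled with Cy3 and Cy5 and hybridized, per the labels, MK-801 against saline, a dye each. Per the file headers, Agilent Feature Extraction 9.5.3.1 wrote the deposited files, which give, per spot, mean and background fluorescence intensity in each colour, flags, and a log10 ratio of Cy5 to Cy3. The deposited value table of the series holds the log10 ratio of the processed signals. Set against the scanner files it agreed within 0.0041 on the amygdala arrays; it was neither turned for the dyes nor centred, with amygdala medians of -0.0295 to 0. Probe positions are on rn3 per the file headers.

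Intensities were corrected with normexp (offset 50), normalized by loess within each array (limma 3.58.1, R 4.3.3), turned to log2 MK-801 over saline by the dye in the label, and averaged over the 2 arrays of a swap. Controls and outlier spots were left out. A probe needed both colours well above background on 2 of the 4 amygdala arrays, and a gene took its brightest probe. Of 41012 probes, 20067 have a symbol in the files or the RefSeq GRCr8 table, used for names only. Channel levels were scaled with Aquantile. The amygdala was set against the other 5 regions with lmFit and eBayes, 1 value per region, with Benjamini-Hochberg adjustment over all genes at 0.05. The spread behind a p value is thus that between regions. All regions came from the same 9 rats, so that spread holds no error between rats, in the tests against 0 as well. The functions were tested on simulated data. Sample numbers in the labels' descriptions mark dye and dose in every region, and the deviations of same-numbered arrays in different regions correlated at 0.38 or more in 60 pairs. Amygdala and midbrain were scanned on 1 day, the other regions on 2 other days. Named genes have a symbol and were the 12 highest and 12 lowest past 1.5-fold at both doses, those past it at 1 dose with the 6 largest differences between doses each way, the 6 highest and 6 lowest by the statistic against the other regions, and members of gene lists. Members and lists were chosen with earlier results of these data known. Depth does not apply to arrays, whose number limits the precision. The gene just outside the 1.5-fold limit at the high dose is not reported here.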

Additional observations from a re-analysis of the deposited data

Results flagged for a closer look

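Values that differ between the amygdala and the other 5 regions by the test of the difference itself (limma, 1 amygdala value against 5 regions) are given here for genes of the naming rule. Over both doses Avp differed by -1.74 and Oxt by -1.04, Cxcl13 by 0.81, Cltrn by 1.00, Steap1 by 0.79, Krt18 by 0.59, Adipoq by 0.58, Scgb1c1 by 0.69 and Rtp4 by 0.46. Of the choroid plexus markers, Kl differed by 0.52, Folr1 by 0.68, Kcne2 by 0.58 and Aqp1 by 0.73 over both doses. At the high dose the differences were -1.90 for Avp, 0.80 for Cxcl13, 1.60 for Cltrn, 1.09 for Steap1, 0.93 for Krt18 and 0.79 for Adipoq. Plexus markers at that dose differed by 0.79 for Kl, 1.05 for Folr1, 0.99 for Kcne2, 0.99 for Aqp1, 0.55 for Slc4a5 and 0.45 for Prlr. At the low dose Avp differed by -1.58, Oxt by -0.99 and Cxcl13 by 0.82. Cltrn, Adipoq, Cxcl13, Kl, Slc4a5 and Prlr were well above background in both colours on 2, 0, 7, 1, 4 and 4 of the 20 arrays of the other regions, so their tests rest on background ratios there and support no difference. For Steap1 and Kcne2 these were 10 and 11 arrays, with none in midbrain or ventral striatum for Steap1 and none in hippocampus for Kcne2. From the scanner's log ratios Avp and Oxt passed over both doses, and the other genes named here did not. With scan day as a block over both doses, Krt18, Adipoq, Rtp4, Kl, Folr1, Kcne2 and Aqp1 had adjusted p values of 0.0582, 0.0781, 0.116, 0.089, 0.157, 0.0582 and 0.123. Groups of 2 arrays are too small to look for outlying samples.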

How the results depend on the processing

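Of the values of named genes that were past their limit or passed a fit, none turned its direction in the alternatives run: 914 kept direction and side of the threshold and 143 kept direction alone. For values past a limit, leaving out 1 array could not turn the direction, as both arrays of a swap had to share a sign. The scanner's log ratios and the series value table hold nearly the same values, so they are not separate alternatives. From the scanner's log ratios the counts were 259 genes at the high dose, 156 at the low dose, 30 at both and 533 opposed between arrays (77, 36, 10 and 44 as reported), and the fits passed 2 over both doses, 0 at the high dose (1143 at an unadjusted p under 0.05, limma), 1 at the low dose and 223 in the other regions (26, 32, 7 and 483 as reported). The series value table gave 259, 156, 30, 534, 2, 0 (1112 unadjusted, limma), 1 and 207. Median centring gave 12496 opposed genes, 10 in the high-dose fit, 1 in the low-dose fit and 278 in the other regions. With probes also required well above background on 10 of the 20 other arrays, a filter chosen after seeing the data, the fits passed 15 genes over both doses, 21 at the high dose and 3 at the low dose. At 1.3-fold the counts were 191, 172, 40 and 575, and at 2-fold 20, 8, 2 and 0. Without 1 array, when a dose rests on 1 dye orientation, they were 103 to 132 at the high dose (132 without the array with MK-801 in Cy3), 48 to 387 at the low dose (387 without the array with MK-801 in Cy3) and 10 to 16 at both. The low-dose fit passed 3 genes with the filter on all 4 arrays, 13 with an intensity trend, 12 with scan day as a block and 3 without the ventral striatum. The high-dose fit passed 62 with scan day as a block and 20 without the hippocampus. The other regions passed 303 without the ventral striatum and 289 without the cerebral cortex. The replicate block on 24 single arrays passed 96 over both doses. The cause was not tested. Signal over background limits dim genes: Prlr was well above background in saline RNA on 2 of the 4 amygdala arrays, and Oxt in MK-801 RNA on 3.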

Other observations

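Some genes past 1.5-fold higher at the high dose lie outside the gene lists; those given here were chosen after their values were seen. Enpp2, the enzyme that makes lysophosphatidic acid, had 1.03 and 0.83 on the high-dose arrays and 0.11 and 0.12 on the low-dose arrays, and was not tested against the other regions. Kcnj13, a potassium channel, had 0.93 and 0.86 at the high dose and 0.20 and 0.12 at the low dose. Its mean over both doses in the other 5 regions was -0.33 ± 0.35 (SD, n = 5 regions), and the amygdala minus other regions difference was 0.86 (SE 0.24, adjusted p = 0.361, limma). Ccl2, a chemokine for monocytes, had 0.99 and 0.94 at the high dose and 0.41 and 0.08 at the low dose, with 0.36 ± 0.57 over both doses in the other 5 regions (SD, n = 5 regions). Adamts1, a matrix protease, had 0.88 and 1.06 at the high dose and 0.48 and 0.31 at the low dose, with 0.45 ± 0.56 in the other 5 regions (SD, n = 5 regions). At the high dose both Ccl2 and Adamts1 were highest in cerebral cortex, at 1.63 and 1.64.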
